A study of Mus musculus and Heterocephalus glaber with 4 samples.

Results

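Large T antigen of the virus SV40 was introduced into adult mouse skin fibroblasts, and their open chromatin was set against that of control mouse fibroblasts. The sites compared were all ATAC-seq peaks on chromosomes 1 to 19: 72924 peaks in control cells and 61625 in large T cells, 134549 of the 302336 peaks in the 4 lists of the series, which also holds naked mole rat cells. Both mouse groups were fibroblasts at passage 16, grown in 15% serum at 37 °C and 3% oxygen, and differed, as far as the labels say, by large T antigen alone. The labels give neither strain, sex, number of animals nor how large T was delivered, and whether the large T cells were 1 clone is not stated. Each group had 1 library, so no value below has a replicate error and no difference was tested.

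ATAC-seq marks open chromatin with a transposase that cuts where DNA is not wrapped tightly in nucleosomes, mostly at promoters, enhancers and other regulatory sites. A peak caller joins the cuts of such a site into 1 interval, so the width of a peak shows how far around the site insertions were called above the background. Large T antigen inactivates p53, the main DNA damage checkpoint factor, and frees E2F factors from the retinoblastoma proteins, which drives fibroblasts into continued division. Positions are given in mm9, and no genes are named, since no annotation of that build was used here. For the same reason fibroblast markers could not be looked up in the lists.

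Because the number of peaks called depends on read depth, which is unknown, the lists were compared at equal length. This sets peak number only, and peak widths were not adjusted for read depth. All 61625 autosomal large T peaks were kept, with the 61625 control peaks of highest score, the authors' own value per peak. This left out 11299 control peaks (15.5%). The lowest control score kept and the highest left out were both 66.36. The large T list ran down to a score of 50, so the weakest peaks of both lists were not cut at the same score. The 1000 control peaks just inside the cut had a median width of 895.5 bp, and a large T peak overlapped 41.8% of them. For the 1000 just outside these values were 876.5 bp and 37.0%.

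At equal length the lists met at most sites. A large T peak overlapped 48423 control peaks (78.6%, exact 95% binomial interval 78.3 to 78.9), and a control peak overlapped 48875 large T peaks (79.3%, 79.0 to 79.6). These intervals, like all others given here, cover counting error over peaks only. Of the 12750 large T peaks without a partner, 3600 (28.2%) met a control peak that the cut had left out. Peaks without a partner were concentrated at low scores. In the lowest score decile 3478 of 6162 control peaks and 3552 of 6162 large T peaks had none, and in the highest decile 2 and 10 of 6163.

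Called peaks were narrower in the large T list than in the control list. The median width was 1327 bp in the control list (quartiles 1012 and 1866 bp) and 1159 bp in the large T list (878 and 1651 bp), a difference of -168 bp. The 11299 control peaks left out by the cut had a median width of 831 bp and do not enter these values. A width of 2 kb or more was reached by 13128 control peaks (21.3%) and 9438 large T peaks (15.3%). The control peaks covered 96.7 Mb and the large T peaks 84.3 Mb, 12.4 Mb less. Sites with a single peak in each list, called 1-to-1 sites here, accounted for -10.2 Mb of this, or 82.6%. Control peaks without a partner covered 14.2 Mb and large T peaks without one 12.3 Mb, and split and merged sites together changed little, with -0.196 Mb at split sites.

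The width difference was found in every score decile. Deciles were formed within each list and did not hold equal scores. Decile 5 ran from 136 to 166 in the control list and from 112 to 142 in the large T list. In the lowest score decile of each list the median width was 919 bp in control and 737 bp in large T cells, 19.8% less. In the middle of the list, in decile 5, it was 1222 and 1073 bp. In the highest decile it was 2201 and 1991 bp, 9.54% less. The difference in base pairs lay between -144 bp (decile 6) and -210 bp (decile 10), while the relative difference at equal length was largest in decile 1 and smallest in decile 10. At the top, in decile 10, a width of 2 kb was reached by 62.8% of peaks in control cells and by 49.5% in large T cells. In the lowest decile the difference depended on the cut: with all autosomal peaks kept it was -72 bp, and in the highest decile -182 bp. The order of the relative differences is therefore given for the lists at equal length only.

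**Figure D1:**
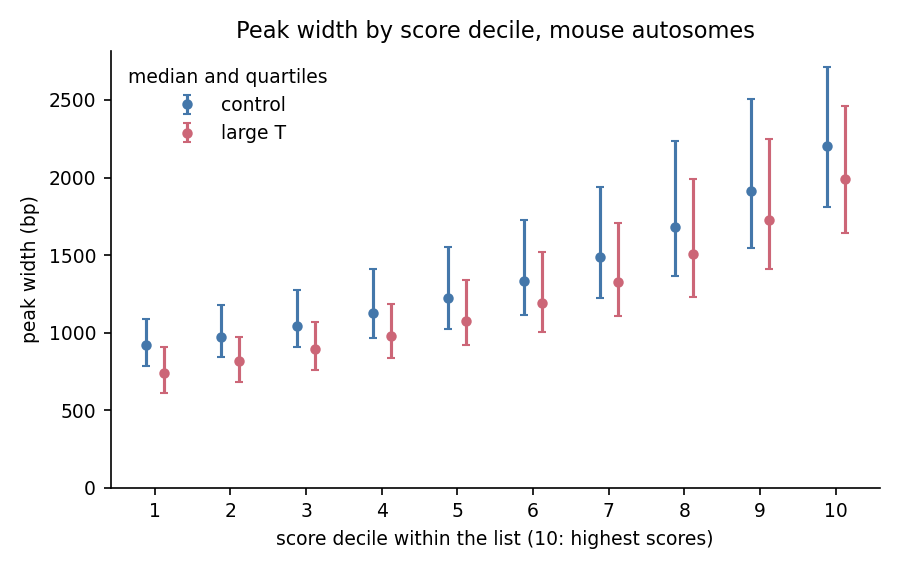
Peak width in bp (vertical axis, from 0) in the 10 score deciles of each list at equal peak number (horizontal axis); points are medians and bars the quartiles over peaks, control in blue and large T in red. The large T median lies below the control median in every decile, from 737 against 919 bp in decile 1 to 1991 against 2201 bp in decile 10.

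The same sites were then followed from list to list. At the 47700 1-to-1 sites the median width was 1462 bp in control and 1275 bp in large T cells. The median log2 ratio of large T to control width was -0.16 (exact 95% interval -0.17 to -0.16; quartiles -0.40 and 0.02), which is a width of 89.3% of control at the median site. The large T peak was narrower at 72.5% of these sites, wider at 27.4% and equal at 0.149%. At least 2-fold narrowing was seen at 1626 sites, 3.41% of all 1-to-1 sites, and at least 2-fold widening at 163, which is 0.342%.

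At the median site both edges lay further in. The left edge, at the lower coordinate, lay 85 bp further in at the median large T site and the right edge 51 bp further in, so that the midpoint shifted by 17 bp to the right. Both edges had moved inward at 47.1% of sites and both outward at 12.4%. The left edge moved more than the right in each of the 10 classes of mean score rank, by 75 against 67 bp among the weakest sites and by 105 against 56.5 bp among the strongest.

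Sites ranked low in both lists narrowed most in relative terms. When sites were ordered by the mean of their score ranks in the 2 lists, the median log2 ratio was -0.27 in the lowest of 10 classes, -0.16 in class 5 and -0.12 in the highest. The gradient depended on the list used for ranking. Ordered by the control list, the medians lay between -0.20 (decile 7) and -0.090 (decile 1). Ordered by the large T list, they lay between -0.49 (decile 1) and -0.10 (decile 8). The median was below 0 in every decile under each of these orders.

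At the 1626 sites that narrowed 2-fold or more the median control width was 1979.5 bp and the median large T width 823 bp. Their median score percentile, where 100 is the highest score of a list, was 52.4 in control and 27.7 in large T cells. At 849 of the 1626 sites (52.2%) at least 80% of the change lay at 1 edge, at the left edge of 526 and at the right edge of 323. The same held for 42.0% of all 1-to-1 sites. The 163 sites that widened 2-fold or more went from a median of 990 to 2367 bp, and at 121 of them (74.2%) the change lay at 1 edge. Their median percentile was 38.7 in control and 64.5 in large T cells. In both sets, chosen by width change, the median score rank thus moved with the width, though not at every site.

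The 5 strongest changes each way among 1-to-1 sites above the median of mean rank showed loss or gain on 1 side in most cases. On chromosome 5 a control peak of 3337 bp (31753384 to 31756720) shrank from both sides to 799 bp (31754470 to 31755268), a log2 ratio of -2.06 at nearly equal percentiles, 60.9 and 60.2. On chromosome 6 a control peak of 5744 bp (34725632 to 34731375) kept only its right end, 1420 bp, in large T cells, and there the percentile was higher in large T (81.3) than in control cells (56.3). A peak on chromosome 19 of 5905 bp (40327529 to 40333433) lost 4297 bp at its right side and kept 1530 bp. Its percentile was also higher in large T (71.1) than in control cells (47.7). A peak on chromosome 3 (85616482 to 85618936) went from 2455 to 609 bp, and a peak on chromosome 11 (80584463 to 80587138) from 2676 to 716 bp, both with a lower percentile in large T cells. In each of these 5 the large T peak was the only one of the whole large T list inside the control peak.

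The sites that widened most did so mainly on 1 side. On chromosome 7 a control peak of 899 bp (101564246 to 101565144) corresponded to a large T peak of 2859 bp (101562303 to 101565161), a log2 ratio of 1.67, with nearly all of the gain at the left. A peak on chromosome 2 at 141626522 to 141627211 went from 690 to 2035 bp, and a peak on chromosome 4 at 82158426 to 82159720 from 1295 to 3637 bp, both mostly at the left. On chromosome 14 a pair of sites gained at the right: 1950 to 5390 bp at 84842036 to 84843985, and 1966 to 5172 bp at 120673566 to 120675531. At the sites on chromosomes 7, 2 and 4 the score percentile was higher in large T than in control cells. At the first site on chromosome 14 it was lower, 53.6 against 73.7. At the last site the score percentile hardly differed between the lists (70.4 and 71.5).

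The size of the width change differed between chromosomes. The median log2 width ratio of 1-to-1 sites ran from -0.30 on chromosome 10 (exact 95% interval -0.32 to -0.29, 2794 sites) to -0.046 on chromosome 4 (-0.060 to -0.032, 2762 sites), with all 19 medians below 0. The intervals of 14 of the 19 chromosomes did not include the median of all sites. Chromosome 10 thus lost 18.8% of the width of its median site and chromosome 4 lost 3.11%. After chromosome 10 came chromosomes 2 (-0.22), 11 (-0.22), 19 (-0.21), 5 (-0.20) and 1 (-0.20). Next to chromosome 4 stood chromosomes 3 (-0.090), 8 (-0.11) and 13 (-0.13). The other 9 chromosomes lay from -0.17 to -0.14. Chromosomes 10 and 4 held these places with all autosomal peaks, with each list cut to its top 30000 peaks, and with an overlap of at least 50% of both peaks.

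The pattern on chromosomes 10 and 4 was found in all of their blocks compared. Chromosome 10 was cut into 13 blocks of 10 Mb with at least 50 sites each, and every block had a median between -0.36 and -0.26. Among the 244 such blocks of all autosomes 25 lay under -0.25, and 13 of these 25 were the blocks of chromosome 10. On chromosome 4 the 15 blocks lay between -0.097 and 0.031, so that no block of chromosome 4 reached the range of chromosome 10. Of the 4 blocks at or above 0 in the genome, 3 were on chromosome 4, and the other was on chromosome 8 (0.060).

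Sites of low, middle and high rank shared in this. On chromosome 10 the median was -0.39, -0.30 and -0.25 in the lower, middle and upper of 3 classes of mean rank, the lowest of the 19 chromosomes in each class. On chromosome 4 it was -0.075, -0.025 and -0.047, the highest of the 19 in each. On chromosome 10 the median site was 1555.5 bp wide in control and 1236.5 bp in large T cells, against 1462 and 1275 bp over all autosomes, and on chromosome 4 it was 1349.5 and 1323 bp. The left and right edges lay 163 and 102 bp further in on chromosome 10, and 16 and 12 bp on chromosome 4. On chromosome 10, 85.6% of sites were narrower in large T cells, and on chromosome 4 56.4%. Narrowing of 2-fold or more affected 183 sites of chromosome 10 (6.55%) and 42 of chromosome 4 (1.52%), against 3.41% of all 1-to-1 sites.

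**Figure D2:**
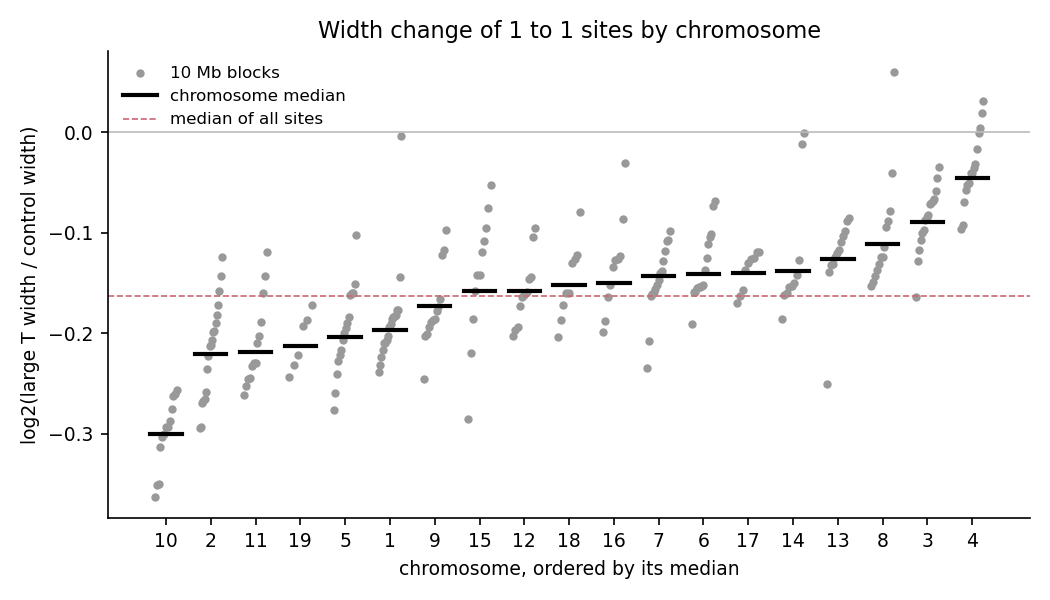
Median log2 ratio of large T to control peak width at 1-to-1 sites (vertical axis) for each autosome, ordered by its median (horizontal axis); black bars are chromosome medians, grey points medians of 10 Mb blocks in order of size and not of position, and the dashed line the median of all sites (-0.16). The blocks of chromosome 10 (-0.36 to -0.26) and of chromosome 4 (-0.097 to 0.031) do not overlap.

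Within some chromosomes the change was uneven, as seen in the block medians and therefore described with boundaries chosen after the fact. The first 50 Mb of chromosome 11 had a median log2 ratio of -0.16 (785 sites), with block medians from -0.20 to -0.12, and the rest had -0.24 (2112 sites), with block medians from -0.26 to -0.21. On chromosome 15 the first 70 Mb had -0.12 (1109 sites) and the rest -0.22 (978 sites). Blocks near 0 lay on chromosome 1 from 100000001 to 110000000 (-0.0041, 76 sites) and on chromosome 14 from 100000001 to 120000000 (-0.012 and -0.0014, 116 and 87 sites), while the other blocks of these chromosomes with at least 50 sites lay between -0.24 and -0.13.

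Chromosomes that narrowed less tended to carry relatively more large T peaks. Chromosome 4 had 3409 control and 3721 large T peaks (109% of control), and chromosome 13 had 2910 and 3073 (106%). Chromosome 5 had 3900 and 3622 (92.9%), and chromosome 10 had 3747 and 3492 (93.2%). As a share of the peaks of both lists, large T peaks were most frequent on chromosome 4, at 52.2% (51.0 to 53.4), and least on chromosome 5, at 48.2% (47.0 to 49.3). On 5 chromosomes this interval did not include 50%. Most sites enter both counts, so the interval is only a guide. Over the 19 chromosomes Pearson's r between the median width ratio and the large T percentage of control peaks was 0.76 (Spearman's rho 0.62), and that between the width ratio and the median shift in score percentile of 1-to-1 sites was 0.91. These are descriptions over chromosomes of 1 pair of libraries, and all 3 measures come from the same peaks.

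Peaks without a partner were divided unequally on these chromosomes. On chromosome 4, 18.1% of control peaks and 24.6% of large T peaks had no partner. On chromosome 10 it was the reverse, with 24.6% of control peaks and 18.2% of large T peaks. Chromosome 10 was not alone in this: on chromosome 5 the shares were 24.6% and 17.8%, and on chromosome 1 23.9% and 19.1%. Over all autosomes 13202 of 61625 control peaks and 12750 of 61625 large T peaks had no partner. Neither read depth nor DNA copy number by chromosome was measured here.

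A control peak was more often divided into several large T peaks than the reverse. Of the 48323 sites with peaks in both lists, 523 (1.08%) had 1 control peak over several large T peaks, called split, and 73 (0.151%) had 1 large T peak over several control peaks, called merged, a ratio of 7.16. A further 27 sites had several peaks in both lists. Split sites outnumbered merged sites on all 19 chromosomes, and 2 chromosomes had no merged site. Of the split sites 521 fell into 2 large T peaks and 2 into 3, while all 73 merged sites joined 2 control peaks. With all autosomal peaks the numbers were 524 and 138, so that the excess was smaller once the weak control peaks were counted. With only the top 30000 peaks of each they were 22 and 5.

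Splitting affected mainly broad peaks, and the pieces together kept most of the control width. The median control peak that split was 2893 bp wide, against 1462 bp for 1-to-1 sites, and 420 of the 523 (80.3%) were at least 2 kb wide. The large T pieces together kept 88.8% of the control width at the median site, close to the 89.3% at 1-to-1 sites. The pieces lay a median of 150 bp apart (quartiles 60 and 308 bp), and 86.7% of the distances were under 500 bp. Split control peaks rose from 0.0478% of control peaks under 1 kb to 0.526% of those of 1.5 to 2 kb and 6.29% of those of 3 kb or more. Merged large T peaks rose from 0.0176% to 0.997% between the same width classes. By score, splitting was most frequent in decile 7 of the control list (111 peaks, 1.80%) and less so in the lowest (8 peaks) and highest (22 peaks) deciles.

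**Figure D3:**
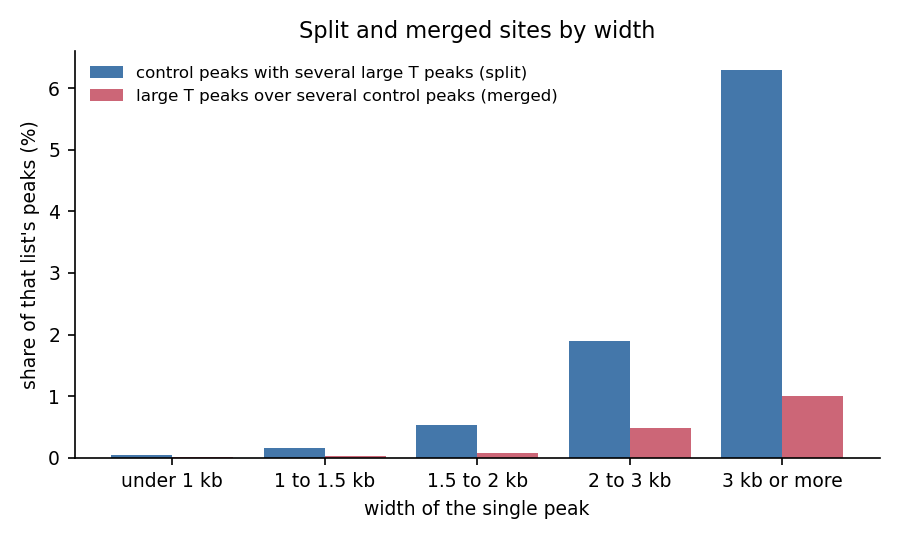
Share in percent (vertical axis, from 0) of control peaks that split into several large T peaks (blue) and of large T peaks that lie over several control peaks (red), by the width of the single peak (horizontal axis). Both shares rise with width, to 6.29% and 0.997% at 3 kb or more, and the split share is the higher one in every width class.

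The split sites named by number of pieces, then width, were these. On chromosome 5 a control peak of 5810 bp (150175279 to 150181088) met 3 large T peaks of 4601 bp together, with up to 2038 bp between them. On chromosome 17 a control peak of 2564 bp (25675993 to 25678556) also met 3. The widest control peaks that fell in 2 were on chromosome 13 (21258304 to 21265728, 7425 bp), chromosome 6 (31165106 to 31172334, 7229 bp) and chromosome 2 (151735784 to 151742888, 7105 bp). All 5 stood below the middle of the control list, at percentiles from 9.93 to 44.0.

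The widest merged sites stood higher in the large T list than these split sites, whose large T percentiles ran from 19.6 to 33.5. A large T peak of 5454 bp on chromosome 3 (129234555 to 129240008) covered 2 control peaks of 5014 bp together that lay 511 bp apart. The others were on chromosome 7 (138108028 to 138113038), chromosome 11 (16156865 to 16161836), chromosome 8 (120807133 to 120811838) and chromosome 13 (71511379 to 71516052). Their control pieces lay 62 to 286 bp apart, and their large T percentiles ran from 41.9 to 82.6.

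Consecutive peaks lay closer together in the large T list at equal length. The median distance between midpoints was 17696 bp in control cells (interval 17524 to 17878) and 16779 bp in large T cells (16609 to 16940). The difference was largest at short range. Distances under 5 kb numbered 3724 in control cells (6.04%) and 5669 in large T cells (9.20%), 1.52 times as many, and distances under 2 kb numbered 678 and 1379. From 5 to 10 kb the lists were close, with 12761 and 13048, and from 10 to 100 kb the large T list had fewer, 39186 against 41470. This excess depended on the cut at equal length. With all autosomal peaks the control list had 6509 distances under 5 kb (8.93%) and a median of 15358 bp, so the short distances were about equally frequent and the median distance was longer in large T cells.

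Few of the close large T neighbours came from split peaks. Of the 5669 neighbouring pairs of large T peaks under 5 kb apart, 552 (9.74%) lay over the same control peak and 2148 (37.9%) over 2 different control peaks. In 2535 pairs (44.7%) 1 of the peaks had no control partner, and in 434 (7.66%) neither had one. Of the 3724 close control pairs, 100 (2.69%) lay over the same large T peak, 2161 (58.0%) over different ones and 1294 (34.7%) had 1 peak without a partner. At equal length, pairs over 2 peaks of the other list were thus about equally many, and the large T surplus lay mainly in pairs with an unpartnered peak. Both the surplus and the lack of a partner depended on the cut. With all autosomal peaks the control list had more distances under 5 kb, 6509 against 5669. Of the 12750 unpartnered large T peaks, 3600 met a control peak that the cut had left out.

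Large T peaks without a partner sat near other large T peaks. A neighbour of the same list lay within 5 kb of 25.3% of the 12750 unpartnered large T peaks, against 15.7% of those with a partner. In the control list these shares were 12.1% and 11.7%. The order held with all autosomal peaks, at 24.8% of 9150 unpartnered large T peaks and 18.8% of 20837 unpartnered control peaks, with 16.5% and 16.6% for partnered ones. The unpartnered large T peaks had a median width of 859 bp at equal length, against 997 bp for unpartnered control peaks.

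**Figure D4:**
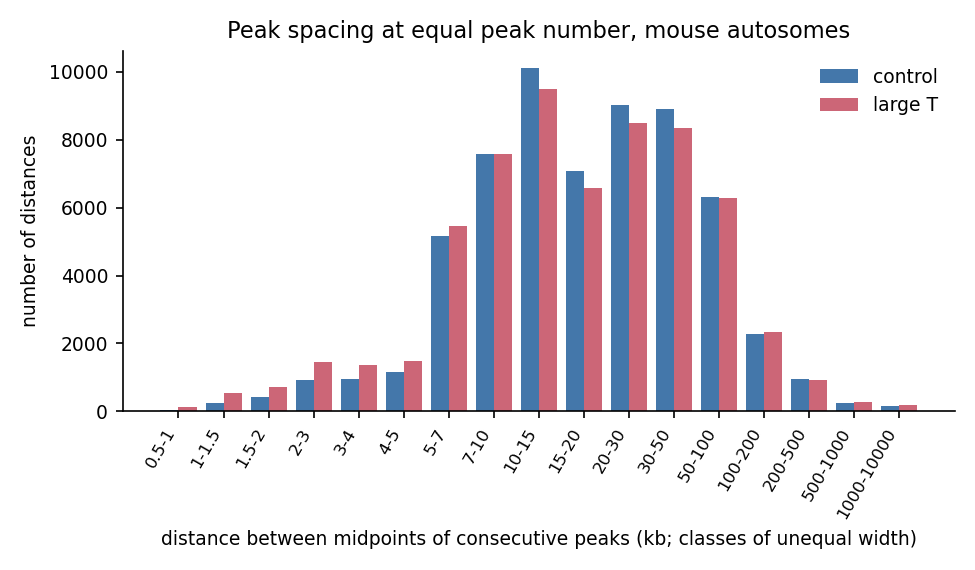
Number of distances between midpoints of consecutive peaks (vertical axis, from 0) by distance class in kb, of unequal width (horizontal axis), control in blue and large T in red, 61606 distances each. The large T bars are higher in every class up to 5 to 7 kb and lower from 10 to 100 kb.

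At the other end of the scale, long stretches without a peak were slightly more frequent in large T cells. Distances over 1 Mb numbered 154 in control and 180 in large T cells. Of the 154 control stretches 94 held no unpartnered large T peak, 39 held 1 and 21 held more, at most 5. Of the 180 large T stretches 71 held no unpartnered control peak, 47 held 1 and 62 held more, at most 10. The longest stretch was nearly the same in both lists, on chromosome 7 from 39060818 to 46703875 in control cells (7.64 Mb) and from 39068043 to 46703831 in large T cells. The lists also shared the stretches on chromosome 14 beginning at 106900478 and 106794133 (5.17 and 5.28 Mb), on chromosome 8 beginning at 98762277 and 98762541 (4.61 Mb in both), and on chromosome 7 beginning at 20539455 and 20539510 (4.33 and 4.32 Mb). Of these shared stretches, both control ones on chromosome 7 held 1 unpartnered large T peak each. The large T one on chromosome 14 held 1 unpartnered control peak. The second longest in large T cells, on chromosome 15 from 13315136 to 18750063 (5.43 Mb), held 1 unpartnered control peak. The fifth in control cells lay on chromosome 7 from 7254009 to 11079248 (3.83 Mb).

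Some stretches were empty in 1 list only, a set picked for their content after the values were seen. On chromosome 15 no large T peak lay between 68960651 and 71132729 (2.17 Mb), where the control list had 10 unpartnered peaks. Stretches on chromosome 5 (48812025 to 50152128), chromosome 10 (72978969 to 74125669) and chromosome 7 (131123347 to 132521864) held 8, 7 and 7 of them and no large T peak. In the reverse direction, stretches without a control peak above the cut on chromosome 1 (18097419 to 19896098) and chromosome 17 (54308151 to 55841672) held 5 large T peaks each.

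In windows of 1 Mb the lists followed each other closely. Of 2310 windows with a peak, 1842 held 20 or more when the lists were added up, and these contained 96.8% of all peaks. Both lists had a median of 32 peaks per window, and Pearson's r between the counts was 0.93 across windows, a description of shared density along the chromosomes. The log2 ratio of large T to control peaks, after adding 1 to each count, had a median of 0 and an SD of 0.25 over windows. More large T peaks were found in 863 windows, fewer in 814 and equal numbers in 165. A difference of 2-fold or more was reached upward in 4 windows, 0.217% of those compared, and downward in 6, 0.326%. These windows depended on where the borders lay: shifted by 500 kb, 0 windows reached the upper and 7 the lower limit. With all autosomal peaks 1 and 34 did, around a median log2 ratio of -0.22.

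Large differences were found mostly where peaks were few, and a ratio of small counts varies more by counting alone. How much of the spread goes beyond counting was not tested. When windows were ordered by peak number in 5 classes, the lowest held 20 to 42 peaks. There the SD of the log2 ratio was 0.38, and 9 of the 10 windows with a 2-fold difference belonged to it. In the highest class, 87 to 152 peaks, the SD was 0.14 and the range -0.41 to 0.36. In 3 of the 1842 windows the share of large T peaks had an interval without 50%, those on chromosome 13 from 31000001 and on chromosomes 5 and 10 from 42000001 and 104000001. As for whole chromosomes, most sites enter both counts, so this interval is only a guide and does not single out these windows. In dense windows the large T list was slightly ahead, with 103% of control peaks in the densest class and 97.0% in the sparsest.

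Windows richest in large T peaks were spread over several chromosomes. The highest ratio was on chromosome 13 from 10000001 to 11000000, with 6 control and 16 large T peaks (log2 ratio 1.28), of which 11 had no control partner. On the same chromosome, from 31000001 to 32000000, there were 16 and 35 peaks (1.08, large T share 68.6%, 54.1 to 80.9), with 22 large T peaks and 3 control peaks unpartnered. The windows on chromosome 2 from 133000001 (11 and 23 peaks) and on chromosome 3 from 29000001 (8 and 17 peaks) both had a log2 ratio of 1. They were followed by windows on chromosome 9 from 28000001 (0.93), chromosome 3 from 34000001 (0.92), chromosome 11 from 7000001 (0.86) and chromosome 4 from 4000001 (0.82).

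Windows poorest in large T peaks lay on chromosomes 10 and 5 in 5 of 8 cases. The lowest was on chromosome 10 from 104000001 to 105000000, with 16 control and 5 large T peaks (log2 ratio -1.50, large T share 23.8%, 8.22 to 47.2), and 12 of the 16 control peaks had no partner. On chromosome 5 from 42000001 to 43000000 there were 22 and 9 peaks (-1.20). A log2 ratio of -1 was found on chromosome 8 from 15000001 and chromosome 10 from 106000001, with 21 and 10 peaks each, and on chromosome 5 from 63000001 and chromosome 13 from 92000001, with 15 and 7 peaks each. The windows on chromosome 10 from 52000001 (-0.92) and chromosome 1 from 41000001 (-0.91) came next. In the 8 windows together no more than 1 large T peak each lacked a control partner.

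**Figure D5:**
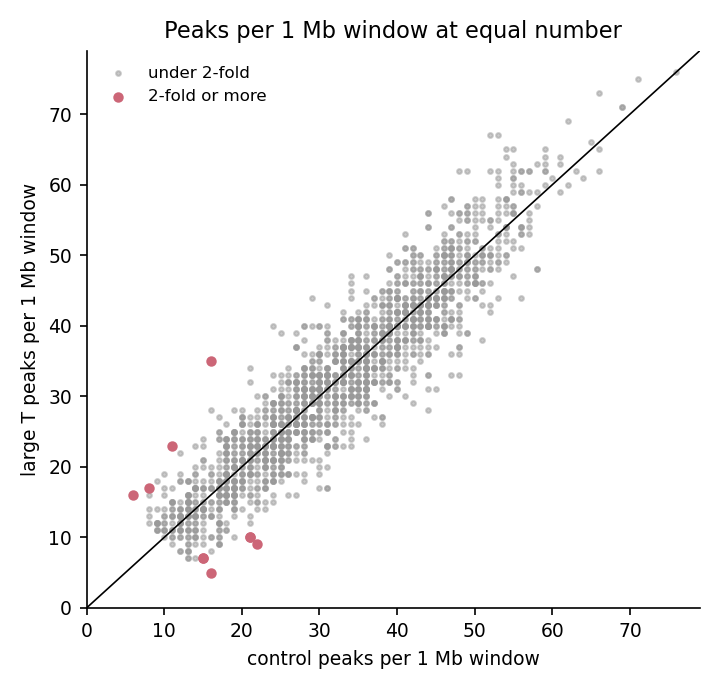
Number of control peaks (horizontal axis) and large T peaks (vertical axis) in 1842 windows of 1 Mb at equal peak number; the line marks equal counts, and red points are windows that differ 2-fold or more. The 10 red windows hold 6 to 22 control peaks and 5 to 35 large T peaks, and 9 of them belong to the class of windows with fewest peaks. Windows dense in 1 list are dense in the other.

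Longer series of windows leaning 1 way held differences of unequal size. That on chromosome 13 includes the window from 31000001 named above, with 16 control and 35 large T peaks. That on chromosome 7 includes a window with 30 control and 17 large T peaks. The longest with more large T peaks ran over 13 windows of chromosome 11 from 95000001 to 108000000, with 570 against 513 peaks (111% of control). A series of 10 windows on chromosome 13 from 30000001 to 40000000 had 316 against 252 (125%), and 8 windows on chromosome 3 from 127000001 to 135000000 had 226 against 197 (115%). With fewer large T peaks, 9 windows of chromosome 10 from 17000001 to 26000000 had 263 against 314 (83.8%), 8 windows of chromosome 7 from 132000001 to 140000000 had 257 against 310 (82.9%), and 8 windows of chromosome 11 from 79000001 to 87000000 had 246 against 275 (89.5%). Chromosome 11 thus held series in both directions within its distal part.

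By the median width ratio of 1-to-1 sites, the called large T peaks were narrower in most windows. Among the 1529 windows with at least 15 1-to-1 sites, the median log2 width ratio was below 0 in 1449 and above 0 in 77, around a median of -0.16. The windows of strongest narrowing were on chromosome 10 from 83000001 to 84000000 (-0.66, 31 sites) and from 60000001 to 61000000 (-0.63, 28 sites), and on chromosome 11 from 80000001 to 81000000 (-0.52, 29 sites). The windows of strongest widening were on chromosome 6 from 36000001 to 37000000 (0.17, 16 sites) and on chromosome 4 from 84000001 (0.16, 17 sites) and from 8000001 (0.13, 26 sites). Of these 6 windows 4 lay on chromosomes 10 and 4.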

How the data were processed

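ATAC-seq libraries of mouse fibroblasts, 1 with large T antigen and 1 control, were compared through the peak list the authors deposited for each. Each deposited list has 5 columns without a header, and peak names begin with MACS. How the authors computed the score in the deposited lists is unknown here, and it served only for ranking within a list. Start and end of each peak, other measurements in the deposited lists, are whole base pairs, read as BED intervals and printed 1-based. The submitters' processing notes name the tools Bowtie, bedtools, SAMtools and CASAVA, without roles, and mm9 as build. The last peak on chromosome 1 ends at 197068445, past the end (195291439) of the last GRCm38 gene there, so no GRCm38 position was used. No mm9 sequence or annotation was used here, so cell type markers and genes, though planned, were not looked up. Read depth is unknown.

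Peaks on chromosomes 1 to 19 were ranked by score (ties by chromosome and start) and the 61625 highest of each list compared; the 2196 control and 1633 large T peaks elsewhere were left out. Peaks overlapping by at least 1 bp were joined into sites, and a site's score decile and percentile refer to its own list. Windows were counted by peak midpoint. Regions were named by fixed rules: the 8 windows of highest and of lowest ratio, the 3 longest series of windows each way, the 5 sites of strongest narrowing and of widening above the median of mean rank, the 5 split and 5 merged sites with most pieces, and the 5 longest distances per list. The comparisons were chosen with earlier results of these data known. Blocks of 10 Mb and values by chromosome were added after seeing the data. Intervals are exact binomial, for medians by order statistics. The functions were tested on simulated data, and overlaps gave the same counts as bedtools 2.31.1. Alternatives were all autosomal peaks, the 30000 highest-scoring peaks, stricter overlaps, other window sizes and minimums, and leaving out chromosomes. Tools were numpy 2.4.6, scipy 1.17.1, pandas 2.3.3 and matplotlib 3.10.9 under Python 3.11.15.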

Additional observations from a re-analysis of the deposited data

Results flagged for a closer look

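Several differences between large T and control cells had opposite signs in mouse and naked mole rat cells, each with 1 pair of libraries and compared at equal peak number; the difference between the species was not tested, and culture temperature also differed. The cut to equal number removed the lowest-scoring control peaks in mouse (72924 to 61625) but the lowest-scoring large T peaks in naked mole rat (83297 to 80661). In both species the list that was cut had the larger median width and the larger median distance. The median width differed by -168 bp in mouse and 36 bp in naked mole rat, and the median log2 width ratio of 1-to-1 sites was -0.16 and 0.063. With all autosomal peaks the mouse ratio was -0.16. The left edge lay 85 bp further in at the median mouse site and moved by -18 bp inward (outward) in naked mole rat; the right edge moved inward by 51 bp and -26 bp. The log2 ratio of split to merged sites was 2.84 in mouse (523 and 73 sites) and -0.67 in naked mole rat (344 and 549 sites). The median distance between neighbouring peaks differed by -917 bp in mouse and 655 bp in naked mole rat, both at equal number. With all autosomal peaks the mouse difference was 1421 bp. No naked mole rat value from uncut lists is given here to set beside it. At equal number the share of distances under 5 kb differed by 3.16 and -1.70 percentage points, and with all autosomal peaks by 0.274 points in mouse. All come from the same 4 lists and are not separate lines of evidence.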

How the results depend on the processing

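The narrowing of sites kept its sign under every alternative run: the median log2 width ratio, -0.16, was -0.16 with all autosomal peaks, -0.14 with the 30000 highest-scoring peaks, -0.15 with an overlap of at least 50% of both peaks, and -0.17 to -0.15 leaving out each autosome. For chromosomes 10 and 4 the alternatives were added after seeing the data; on chromosome 10 the ratio was -0.26 with 30000 peaks and -0.28 with the stricter overlap. The lowest-decile width difference was -72 bp with all autosomal peaks and -136.5 bp with 30000. The spacing difference was the one that changed sign. With all autosomal peaks, where the control list holds more peaks, the difference in median distance reversed to 1421 bp. The difference in the share under 5 kb was then 0.274 points. This share differed by 0.724 points with 30000 peaks and 2.60 points when measured end to start. Merged sites numbered 138 with all peaks and 5 with 30000, and split sites 22 with 30000. Windows with 2-fold more large T peaks numbered 1 with all peaks, 0 with 30000 peaks, with 2 Mb windows and with windows shifted by 500 kb, and 8 with a minimum of 10 peaks. Windows with 2-fold fewer numbered 34 with all peaks, where the median window was at -0.22, 1 with 30000 and 19 with a minimum of 10. Overlap of control peaks was 71.4% with all peaks, 80.1% with 30000 and 74.8% with the stricter overlap, and that of large T peaks 85.2%, 80.1% and 74.8%. The other 21 values stayed within their counting interval or within 1.5 times the count. The causes of these changes were not tested. Depth, and the spread between libraries, were not measured. No paired analysis was possible because each group has 1 library.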
